A study of Homo sapiens with 6 samples.

Results

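Alpha and beta tubulin are the paired proteins that polymerise into microtubules, and each is encoded by several genes, called isotypes. The account below covers 10 of these genes by symbol, the alpha tubulin genes TUBA1A, TUBA1B, TUBA1C and TUBA4A and the beta tubulin genes TUBB, TUBB2A, TUBB2B, TUBB3, TUBB4B and TUBB6. They are 10 of 20026 gene rows. All 10 passed the filter on low values, at least 0.5 FPKM in at least 2 libraries, as did 11445 of all rows. FPKM are fragment numbers divided by transcript length and by library total, so levels can be compared between genes. The genes were chosen by symbol, with the measured FPKM and changes of these same libraries known, and which of those values entered the choice is not given. Calls on them are therefore a description of these libraries and not independent support. Of the genes picked, TUBB2B stood lowest, between 1.03 and 1.54 FPKM. Of the family's genes outside the 10, TUBA8 stood just under that, between 0.333 and 0.626 FPKM, while TUBB4A, at 9.01 to 14.3 FPKM, was as abundant as several of those picked.

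The libraries came from 3 stable lines of HCT116, a human colon carcinoma cell line. One line over-expressed K178R, a mutant of the transcription factor TEAD4 that in the usual notation carries arginine in place of a lysine. Another over-expressed wild type TEAD4, and the last was labelled control, each with 2 libraries made from total RNA. The labels name no vector, promoter or clone. They also do not say whether the 2 libraries of each line were grown separately, so the p-values rest on a spread that may be technical. TEAD factors bind DNA and carry the coactivators of the Hippo pathway, and the design compares the transcriptomes of lines that over-express each form of TEAD4. Form and line go together, so an effect of TEAD4 and any other difference between the lines cannot be told apart. Below, a change with K178R or with wild type TEAD4 is a difference of that line from the control line.

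TEAD4 itself read 71.2 and 72.3 FPKM in the K178R libraries, 86.4 and 84.4 in the wild type TEAD4 libraries, and 16.6 and 17.5 in the control libraries. Replicate 2 of the wild type TEAD4 line carries TEAD5 as its genotype label and was grouped by its title. The number of reads is unknown, and depth relative to control replicate 1 lay between 0.925 and 1.05. Of 8 epithelial markers, 6 were tested and CDX1 was listed at 0 throughout, and their summed level was 2851 to 2884 FPKM in the K178R line, 1796 to 1850 in the wild type TEAD4 line and 2634 to 2681 in the control line. Of 10 neuronal markers, which are of interest because TUBB3 is widely used as one, SYT1 alone was tested and NEFM, ELAVL4 and GAP43 were listed at 0 throughout. Their sum was 8.09 to 8.11, 6.78 to 7.51 and 6.73 to 7.30 FPKM in the same order of lines. Fibroblast markers summed to at most 1.81 FPKM in the K178R line, 3.77 in the wild type TEAD4 line and 1.75 in the control line, and leukocyte and endothelial markers to at most 0.177 FPKM in any library. Nearly all of the fibroblast sum was COL1A1, the only one of that list tested, while COL1A2, DCN and LUM were listed at 0 throughout. The epithelial sum was carried by KRT8 and KRT18, and its members did not all move with it. KRT19 was lower in both TEAD4 lines (log2 -0.23 with K178R and -0.21 with wild type TEAD4, limma adjusted p = 0.00299 and 0.00173), CDX2 was higher with wild type TEAD4 (log2 0.26, adjusted p = 0.00717), and EPCAM was not called in either. The part that these marker differences had in the tubulin values was not tested.

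Microtubules form the mitotic spindle, the tracks for motor proteins and the core of cilia. Isotypes are close in sequence and differ mostly in their C-terminal tails, which carry modifications and bind motors and microtubule-associated proteins. Cells adjust the amount of tubulin through a feedback in which an excess of free dimers triggers decay of tubulin mRNAs while they are translated. That feedback reads the first amino acids of the nascent chain, through the adaptor TTC5, the protein SCAPER and the CCR4-NOT deadenylase.

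The first 24 coding bases of 4 members encode the start of the chain that the feedback reads, with the first 12 bases in capitals. The sequences were taken from 1 coding transcript per gene of GENCODE release 29. TUBA1A and TUBA1C had the same first 12 bases as TUBA1B, TUBB4B the same as TUBB, and TUBB6 the same as TUBB3. TUBA4A, TUBB2A and TUBB2B each had first 12 bases of their own. Within each class these differences are synonymous, so the 12 bases encode the same amino acids in all its members.
TUBA1B: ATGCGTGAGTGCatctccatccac
TUBA4A: ATGCGTGAATGCatctcagtccac
TUBB: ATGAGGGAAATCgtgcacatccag
TUBB3: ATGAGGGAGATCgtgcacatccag

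The last 60 coding bases, which encode the variable tail and the stop codon, are given for the nearest copies among the beta genes. Capitals mark bases of TUBB2B that differ from TUBB2A, position by position from the stop codon.
TUBB2A: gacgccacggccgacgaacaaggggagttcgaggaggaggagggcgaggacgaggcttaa
TUBB2B: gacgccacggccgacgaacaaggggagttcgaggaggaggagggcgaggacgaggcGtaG

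TUBB2B had 2 differing bases in this stretch. Over the whole coding sequence, TUBA1A and TUBA1B were 97.2% identical, TUBA1B and TUBA1C 96.8%, TUBA1A and TUBA1C 95.9%, and TUBB2A and TUBB2B 98.1%. The other pairs within a class were 80.9% to 87.7% identical, and alpha and beta genes 51.9% to 54.0%. How the authors' program assigned reads that match several copies is not given in the sources used here, so the split of reads among TUBA1A, TUBA1B and TUBA1C, and between TUBB2A and TUBB2B, is uncertain. GENCODE also lists 34 alpha and beta tubulin pseudogenes whose symbols hold a P followed by a digit, 32 of them named after beta tubulin. Pseudogenes with symbols of another form were not counted. TUBA1A and TUBA1C, which overlap on opposite strands, lie with TUBA1B on chromosome 12, from 49127782 (the start of TUBA1B) to 49274603 (the end of TUBA1C) in GRCh38. TUBB2A (3153669 to 3157526) and TUBB2B (3224261 to 3231730) are neighbours on the minus strand of chromosome 6.

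Most tubulin RNA came from 4 genes, which all read lower in both TEAD4 lines than in the control line. TUBA1B, TUBA1C, TUBB and TUBB4B together made up 94.96% and 94.98% of the 10 genes' summed FPKM in the K178R libraries, 94.36% and 94.07% in the wild type TEAD4 libraries, and 95.06% and 95.2% in the control libraries. TUBB3 fell furthest in both lines, and the minor isotypes TUBA4A and TUBB6 rose in both. TUBA1A rose with wild type TEAD4 and was not called with K178R. In bulk RNA, fewer cells of a type and less RNA per cell cannot be told apart.

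**Figure D1:**
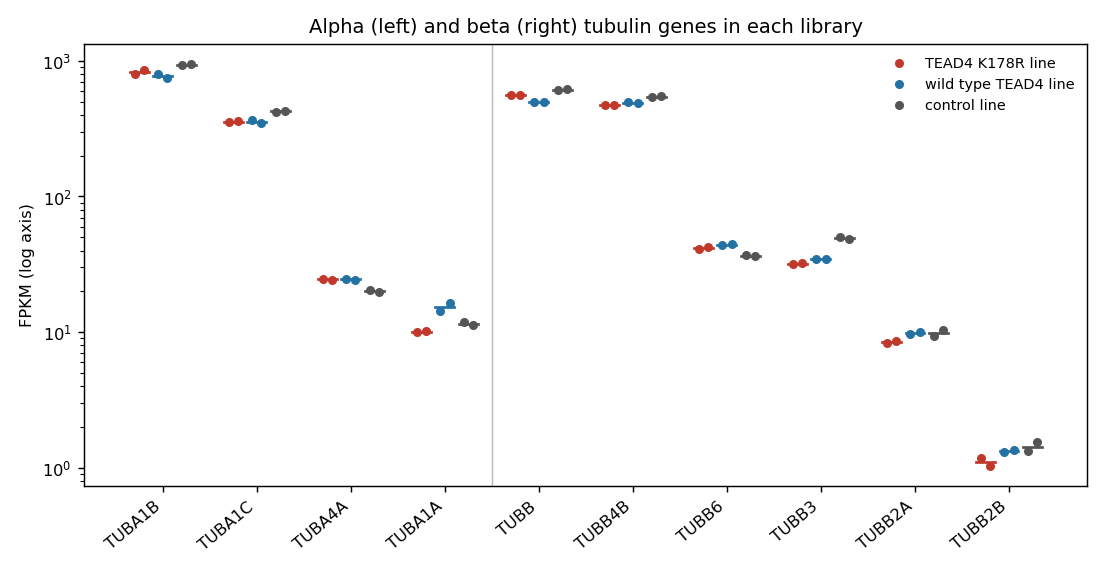
FPKM of each tubulin gene in each library, on a log axis. Points are libraries, 2 per line, and bars are line means. TUBA1B, TUBA1C, TUBB and TUBB4B lie between 349 and 945 FPKM, and the other 6 genes lie at or under 49.998 FPKM.

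TUBA1B encodes the main alpha tubulin of most dividing cells. It read 805 and 851 FPKM in the K178R libraries, 795 and 749.8 in the wild type TEAD4 libraries, and 925 and 945 in the control libraries. Every library of the TEAD4 lines was below both control libraries. The change on the log2(FPKM + 1) scale, used for all changes here, was -0.18 with K178R (SE 0.04, limma adjusted p = 0.0142) and -0.28 with wild type TEAD4 (SE 0.04, adjusted p = 8.9e-04). With K178R the call ended in 6 of the alternative analyses, with adjusted p between 0.0558 and 0.0872, among them leaving out K178R replicate 1 or either control library.

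TUBA1C, a second ubiquitous alpha isotype, read 353 and 361 FPKM in the K178R libraries, 363 and 349 in the wild type TEAD4 libraries, and 423 and 429 in the control libraries. The TEAD4 lines overlapped each other and lay below the control line. It fell by 0.25 on the log2 scale with K178R (SE 0.03, limma adjusted p = 7.9e-04) and by 0.26 with wild type TEAD4 (SE 0.03, adjusted p = 3.3e-04).

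TUBA4A, an alpha isotype whose gene codes for no C-terminal tyrosine, moved the other way. It read 24.7 and 24.4 FPKM in the K178R libraries, 24.8 and 24.4 in the wild type TEAD4 libraries, and 20.6 and 19.8 in the control libraries. All 4 libraries of the TEAD4 lines were above the control line and close to each other. The rise was 0.27 on the log2 scale in each line (SE 0.03, limma adjusted p = 0.00171 with K178R and 6.9e-04 with wild type TEAD4). With median-of-ratios scaling it was 0.17 with wild type TEAD4 (adjusted p = 0.00535).

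TUBA1A, the alpha isotype prominent in developing neurons, was a small part of alpha tubulin RNA here. It read 9.96 and 10.2 FPKM in the K178R libraries, 14.3 and 16.4 in the wild type TEAD4 libraries, and 11.8 and 11.3 in the control libraries. The wild type TEAD4 line was the highest of the 3 and the K178R line the lowest, with no overlap between lines. TUBA1A rose with wild type TEAD4 (log2 0.38, SE 0.06, limma adjusted p = 0.00208). With K178R it did not pass the threshold (log2 -0.18, SE 0.06, adjusted p = 0.0793), though it did in 3 alternative analyses, with adjusted p from 0.0288 to 0.03. Summed with TUBA1B and TUBA1C as 1 feature, the change was -0.20 with K178R (SE 0.03, adjusted p = 0.00505) and -0.26 with wild type TEAD4 (SE 0.03, adjusted p = 6.3e-04).

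TUBB, the class I beta tubulin found in nearly all cells, was the most abundant beta gene. It read 561 and 562 FPKM in the K178R libraries, 499 and 496 in the wild type TEAD4 libraries, and 612 and 616 in the control libraries. The 3 lines were separate, with the wild type TEAD4 line lowest. TUBB fell by 0.13 on the log2 scale with K178R (SE 0.02, limma adjusted p = 0.00398) and by 0.30 with wild type TEAD4 (SE 0.02, adjusted p = 4.9e-05). The K178R call ended without the variance trend (adjusted p = 0.0509).

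TUBB4B, the class IVb beta tubulin that is also common in ciliated cells, read 475 and 474 FPKM in the K178R libraries, 496 and 487 in the wild type TEAD4 libraries, and 542 and 547 in the control libraries. Both TEAD4 lines were below the control line. The log2 change was -0.20 with K178R (SE 0.02, limma adjusted p = 8.2e-04) and -0.15 with wild type TEAD4 (SE 0.02, adjusted p = 0.00122). With median-of-ratios scaling it was -0.254 with wild type TEAD4.

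TUBB3 encodes class III beta tubulin, the isotype of neurons that many carcinomas also express. Its libraries read 31.6 and 32.4 FPKM in the K178R line, 34.7 and 34.6 in the wild type TEAD4 line, and 49.998 and 48.5 in the control line. Every library of both TEAD4 lines was below both control libraries. TUBB3 averaged 32.0 ± 0.579 FPKM, 34.6 ± 0.0898 and 49.2 ± 1.07 FPKM in K178R, wild type TEAD4 and control (SD, n = 2 each), and the ratio of means to control was 0.650 with K178R and 0.703 with wild type TEAD4. The log2 change was -0.61 with K178R (SE 0.03, limma adjusted p = 1.85e-05) and -0.50 with wild type TEAD4 (SE 0.03, adjusted p = 3.9e-05). On chromosome 16 (89921392 to 89938761, plus strand) the gene overlaps another coding gene on its own strand, AC092143.1, and the sources do not say how reads in the overlap were counted. Coding genes on the opposite strand overlap TUBA4A, TUBB2B, TUBB4B and TUBB6. The strand setting is not given, so the same limit holds for these genes.

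TUBB6, the class V beta tubulin, read 40.7 and 42.2 FPKM in the K178R libraries, 44.0 and 44.5 in the wild type TEAD4 libraries, and 37.0 and 36.4 in the control libraries. Both TEAD4 lines were above the control line. TUBB6 rose by 0.17 on the log2 scale with K178R (SE 0.03, limma adjusted p = 0.00744) and by 0.26 with wild type TEAD4 (SE 0.03, adjusted p = 4.9e-04). Without control replicate 2 the K178R call ended (adjusted p = 0.0507). With median-of-ratios scaling the rise was 0.163 with K178R and 0.158 with wild type TEAD4. In the control line TUBB3 stood above TUBB6, and in both TEAD4 lines below it, in every library.

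The class II genes TUBB2A and TUBB2B, best known from brain, were the lowest of the 10. TUBB2A read 8.34 and 8.68 FPKM in the K178R libraries, 9.63 and 10.1 in the wild type TEAD4 libraries, and 9.35 and 10.3 in the control libraries. TUBB2B read 1.19 and 1.03 FPKM in the K178R libraries, 1.32 and 1.36 in the wild type TEAD4 libraries, and 1.32 and 1.54 in the control libraries. For both genes the K178R libraries were below the rest, while the wild type TEAD4 and control libraries overlapped. TUBB2A passed the threshold with K178R (log2 -0.19, SE 0.05, limma adjusted p = 0.0460). That call was lost in 10 alternative analyses, with adjusted p between 0.0517 and 0.210, among them leaving out either K178R library, either wild type TEAD4 library or control replicate 2. With wild type TEAD4 the log2 value of TUBB2A was 0.00 (95% interval -0.13 to 0.13, adjusted p = 0.977). TUBB2B was not called with K178R (log2 -0.21, SE 0.07, adjusted p = 0.0804) or with wild type TEAD4 (log2 -0.06, SE 0.07, adjusted p = 0.549). Summed as 1 feature, the pair fell by 0.21 with K178R (SE 0.05, adjusted p = 0.0317), and its log2 value was -0.01 with wild type TEAD4 (SE 0.05, adjusted p = 0.904).

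**Figure D2:**
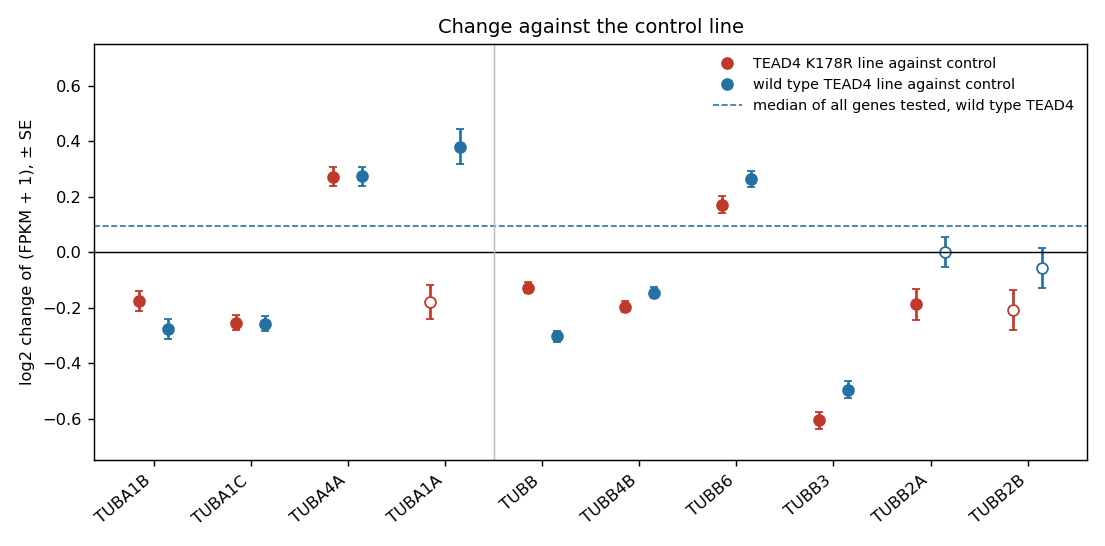
Change of each tubulin gene against the control line on the log2(FPKM + 1) scale, K178R left of wild type TEAD4, with bars of 1 SE. Filled points have a limma adjusted p under 0.05, open points do not, and the dashed line is the median of all genes tested with wild type TEAD4, 0.09. TUBB3 is lowest in both lines, and TUBA1A lies on opposite sides of 0.

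Against the control line, 6 of the 10 genes were lower and 2 higher with K178R, and 5 were lower and 3 higher with wild type TEAD4. Of all genes tested, 22.8% were called with K178R (11.1% lower and 11.7% higher), and 49.9% with wild type TEAD4 (12.2% lower and 37.6% higher) (limma, adjusted over 11445 genes). With median-of-ratios scaling, 2656 genes were lower and 2756 higher with wild type TEAD4, and the tubulin counts were the same. With K178R, leaving out 1 library gave 635 to 1229 genes lower and 732 to 1266 higher, with the low values without a K178R or a control library, and 4 to 6 of the 10 tubulin genes lower. Without the variance trend 3 of the 10 were lower, the calls on TUBA1B, TUBB and TUBB2A being lost. The median log2 change of the 10 was -0.18 with K178R and -0.10 with wild type TEAD4, against 0.00 and 0.09 over all genes tested. The libraries of line and control did not overlap for 8 lower and 2 higher members with K178R, where 30.3% and 32.7% of all genes did not overlap in these directions. With wild type TEAD4 they did not overlap for 5 lower and 3 higher members, where the shares over all genes were 21.9% and 54.9%. The 5 lower genes with wild type TEAD4, TUBA1B, TUBA1C, TUBB, TUBB3 and TUBB4B, were also lower with K178R, and TUBA4A and TUBB6 were higher in both, but these comparisons share the control libraries. With wild type TEAD4, the calls on all 10 genes taken singly were the same under each of 15 alternative analyses. In that line the median of all genes lay above 0, so the falls were larger and the rises smaller after median-of-ratios scaling, which put the median at 0.00.

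The tubulin changes can be set beside those of other highly expressed genes. The 122 genes other than tubulins with a mean of at least 300 FPKM, a level chosen after the values were seen, had a median log2 change of -0.10 with K178R and 0.06 with wild type TEAD4, against 0.00 and 0.09 over all genes tested. TUBA1B, TUBA1C, TUBB and TUBB4B lay between -0.25 and -0.13 with K178R and between -0.30 and -0.15 with wild type TEAD4. The part that expression level had in these changes was not tested.

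**Figure D3:**
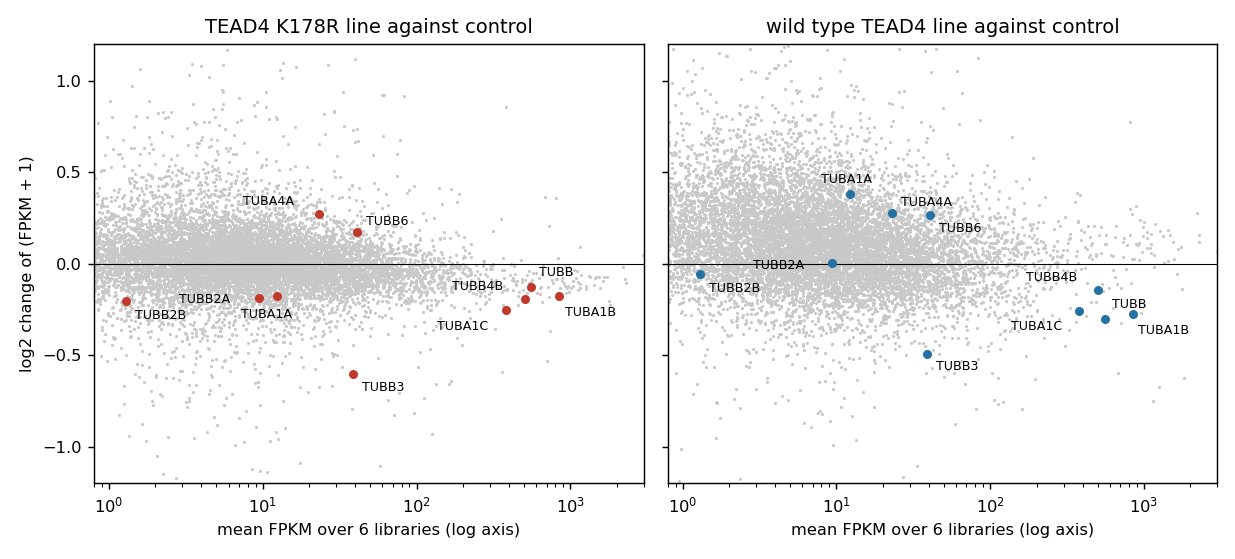
Log2 change against control plotted over mean FPKM (log axis) for all genes tested (grey) and the 10 tubulin genes (coloured), K178R left and wild type TEAD4 right. Genes beyond either axis are not drawn. The 4 abundant tubulin genes lie below 0 in both panels, and TUBA4A and TUBB6 lie above 0 in both panels.

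Summed over isotypes, both tubulin classes were lower in the TEAD4 lines. The 4 alpha genes summed to 1193 and 1247 FPKM in the K178R libraries, 1197 and 1139 in the wild type TEAD4 libraries, and 1380.3 and 1405 in the control libraries. The 6 beta genes summed to 1118 and 1121 FPKM in the K178R libraries, 1085 and 1073 in the wild type TEAD4 libraries, and 1251 and 1259 in the control libraries. In both classes each TEAD4 library lay below each control library. The ratio of means to control was 0.876 for alpha and 0.892 for beta with K178R, and 0.839 and 0.860 with wild type TEAD4. The alpha to beta ratio was 1.07 and 1.11 in the K178R libraries, 1.10 and 1.06 in the wild type TEAD4 libraries, and 1.10 and 1.12 in the control libraries, so that all lines overlapped. Together the 10 genes held 0.816% and 0.829% of all FPKM in the K178R libraries, 0.747% and 0.734% in the wild type TEAD4 libraries, and 0.894% and 0.907% in the control libraries.

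**Figure D4:**
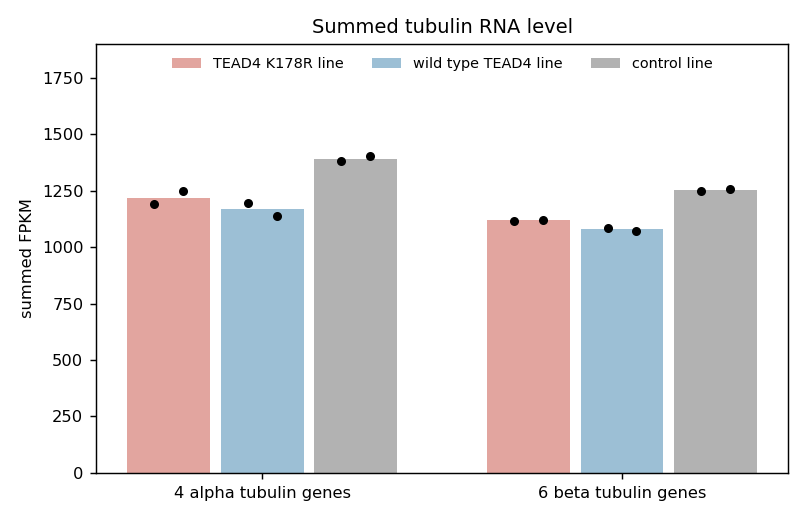
Summed FPKM of the alpha and the beta tubulin genes, as bars of line means with the 2 libraries of each line as points. Control sums, 1380.3 and 1405 for alpha and 1251 and 1259 for beta, are the highest of each class.

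The make-up of each class's pool also differed between lines, both among the abundant and among the minor isotypes. TUBA1B held 67.9% ± 0.562 of alpha FPKM in the K178R line, 66.1% ± 0.413 in the wild type TEAD4 line and 67.2% ± 0.174 in the control line (SD, n = 2 each). TUBA4A held 2.01% ± 0.0823, 2.11% ± 0.0463 and 1.45% ± 0.0596 in the same order. TUBA1A held 0.827% ± 0.0119 in the K178R line, 1.32% ± 0.171 in the wild type TEAD4 line and 0.829% ± 0.0374 in the control line. Of the minor alpha isotypes, TUBA4A thus took a larger share in both TEAD4 lines and TUBA1A in the wild type TEAD4 line. Among beta genes, TUBB held 50.2% ± 0.0183 with K178R, 46.1% ± 0.158 with wild type TEAD4 and 48.9% ± 0.0193 in control. TUBB4B held 42.4% ± 0.127, 45.6% ± 0.274 and 43.4% ± 0.0637 in K178R, wild type TEAD4 and control. Relative to control, the wild type TEAD4 line thus held less TUBB and more TUBB4B in its beta pool, and the K178R line the reverse. TUBB3 held 2.86% ± 0.0461 with K178R and 3.21% ± 0.0153 with wild type TEAD4, against 3.92% ± 0.104 in control. TUBB6 held 3.70% ± 0.0888 with K178R and 4.10% ± 0.0622 with wild type TEAD4, against 2.92% ± 0.0427 in control. These shares depend on no scaling between libraries, and no test was run on them.

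Set directly against wild type TEAD4, K178R differed in TUBA1A and TUBB whichever scaling was used. TUBA1A was lower in K178R (log2 -0.56, SE 0.06, limma adjusted p = 5.9e-04) and TUBB higher (log2 0.17, SE 0.02, adjusted p = 6.1e-04, and log2 0.275 with median-of-ratios scaling). TUBB2A (log2 -0.19, adjusted p = 0.0257), TUBB3 (log2 -0.11, adjusted p = 0.0230) and TUBB6 (log2 -0.09, adjusted p = 0.0413) were also lower, so that 1 member was higher and 4 lower. Between these lines 44.9% of all genes tested were called, 10.4% higher and 34.5% lower, and the median was -0.08. The libraries did not overlap for 2 higher and 6 lower members, where 21.5% and 52.7% of all genes did not overlap in these directions. This split depended on scaling. With median-of-ratios scaling, TUBA1B, TUBA1C and TUBB were called higher (3 members) and TUBA1A lower (1 member), beside 2402 and 2408 of all genes, and after upper-quartile scaling the members split in the same way. TUBB2A, TUBB3 and TUBB6 were not called after either scaling, and leaving out 1 library could also end their calls. TUBA1A and TUBB passed in the same direction under each alternative except that of summing TUBA1A with its copies (log2 0.06, SE 0.03, adjusted p = 0.147). That sum averaged 1195 FPKM in K178R and 1144 in wild type TEAD4, of which TUBA1A was 10.1 and 15.4. The sum therefore says little of TUBA1A itself. With FPKM as deposited, the log2 differences of TUBA4A and TUBA1C were 0.00 (95% interval -0.08 to 0.08) and 0.00 (-0.06 to 0.07). With median-of-ratios scaling they lay outside these intervals, at 0.094 (limma adjusted p = 0.0576) and 0.10 (adjusted p = 0.0198). TUBB4B was not called in either setting. Its difference was -0.05 (unadjusted interval -0.10 to -0.0014, limma adjusted p = 0.0861) as deposited and 0.050 (adjusted p = 0.0966) with that scaling.

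Of 13 tubulin genes outside the 10, listed by name, 6 were tested. None was called with K178R (limma, 0 of 6 at an adjusted p under 0.05), where 22.8% of all genes were. With wild type TEAD4, 2 were higher and 0 lower, where 37.6% and 12.2% of all genes were. TUBB4A, a beta isotype of neurons and oligodendrocytes, read 9.82 and 10.3 FPKM in the K178R libraries, 14.3 and 13.7 in the wild type TEAD4 libraries, and 10.2 and 9.01 in the control libraries. The wild type TEAD4 libraries were above the rest, as for TUBA1A, and TUBB4A rose in that line (log2 0.50, SE 0.06, adjusted p = 5.5e-04). TUBG1, the gamma tubulin that nucleates microtubules, averaged 33.9, 40.4 and 35.9 FPKM in K178R, wild type TEAD4 and control. It rose with wild type TEAD4 (log2 0.16, adjusted p = 0.00487), a call that ended after median-of-ratios (adjusted p = 0.187) and upper-quartile scaling (adjusted p = 0.0565). TUBG2, TUBD1 and TUBE1, encoding gamma, delta and epsilon tubulins, averaged between 2.38 and 5.95 FPKM in each line, and TUBA8 between 0.388 and 0.539. None of these 4 was called in the 3 comparisons. TUBD1 was called lower with wild type TEAD4 after median-of-ratios scaling (log2 -0.16, adjusted p = 0.0468), and TUBG2 higher in that line without its replicate 1 (log2 0.24, adjusted p = 0.0447). TUBA3C, TUBA3D, TUBA4B and TUBB1 were listed at 0 in every library.

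Tubulin folding runs through the chaperonin CCT, prefoldin and the cofactors TBCA to TBCE. The shares over all genes given above, with K178R 11.1% lower and 11.7% higher and with wild type TEAD4 12.2% lower and 37.6% higher, apply to each list that follows. Of 20 tested genes of this path, 7 were lower and 0 higher with K178R, and 4 lower and 2 higher with wild type TEAD4 (limma, adjusted p under 0.05 over all genes). Medians were -0.10 and -0.01. The chaperonin subunit CCT5 averaged 142, 133 and 155 FPKM in K178R, wild type TEAD4 and control and fell in both (log2 -0.13, adjusted p = 0.00779, and log2 -0.22, adjusted p = 3.5e-04). PFDN5, a prefoldin subunit, rose with wild type TEAD4 (log2 0.25, adjusted p = 5.8e-04), as did TBCE, a cofactor that acts on alpha tubulin (log2 0.29, adjusted p = 0.00196). The K178R count was 2 without control replicate 1, and 3 without control replicate 2 or either K178R library, and after median-of-ratios scaling 11 were lower with wild type TEAD4. Without control replicate 1, 4 genes were higher with wild type TEAD4.

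The feedback on tubulin mRNA was represented by TTC5, SCAPER and CCR4-NOT subunits, 11 tested. With K178R, 1 was higher and 0 lower, and with wild type TEAD4, 3 were higher and 1 lower, with medians of 0.00 and 0.03. The 3 of 11 higher with wild type TEAD4 are a smaller share than the 37.6% of all genes. The deadenylase subunit CNOT7 was the one higher with K178R, at 12.04 FPKM, against 10.48 in control (log2 0.18, adjusted p = 0.0155). With wild type TEAD4, CNOT6L (log2 0.23, adjusted p = 0.0105) and CNOT3 (log2 0.16, adjusted p = 0.0247) rose. Counts in this list were 0 higher and 4 lower with wild type TEAD4 after median-of-ratios scaling, so no direction is given. Without wild type TEAD4 replicate 1 or control replicate 1, 0 were higher. The 1 gene higher with K178R became 0 without either control library or K178R replicate 2.

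Enzymes that modify tubulin had a higher median with wild type TEAD4 than the 0.09 of all genes. Of 14 tested, 6 were higher and 2 lower in that line (6 and 4 after median-of-ratios scaling), with a median log2 change of 0.24, and 2 were higher and 0 lower with K178R, with a median of 0.00. The 6 of 14 and 2 of 14 are near the 37.6% and 12.2% of all genes. The 2 became 0 without either control library or either K178R library, and 1 without either wild type TEAD4 library. The 2 lower with wild type TEAD4 became 1 without either library of that line and 0 without control replicate 1. VASH1, which removes the C-terminal tyrosine of alpha tubulin, averaged 1.59, 2.34 and 1.46 FPKM in K178R, wild type TEAD4 and control, and rose with wild type TEAD4 (log2 0.44, adjusted p = 8.3e-04). The deacetylase HDAC6 (log2 0.31, adjusted p = 0.00264) and the deglutamylase AGBL5 (log2 0.40, adjusted p = 0.00938) rose there as well. The glutamylase TTLL1 averaged 0.305, 0.700 and 0.448 FPKM in K178R, wild type TEAD4 and control, and passed the filter through the wild type TEAD4 libraries alone. It is among the 14 genes of the medians, and its values are given no weight.

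Of 12 genes of the gamma tubulin ring complex, the microtubule nucleator, 0 were called with K178R and 3 were higher with wild type TEAD4 (limma), with medians of -0.01 and 0.08, the second near the 0.09 of all genes. The 3 of 12 are below the 37.6% of all genes. MZT1, a small subunit of the complex, averaged 20.54, 23.96 and 19.57 FPKM in K178R, wild type TEAD4 and control (log2 0.28 with wild type TEAD4, adjusted p = 0.00538). The split turned to 1 higher and 5 lower with median-of-ratios scaling, and 2 were higher without wild type TEAD4 replicate 2 or control replicate 2.

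Of 21 stabilising and plus-end proteins tested, 3 were higher and 1 lower with K178R, and 8 higher and 1 lower with wild type TEAD4 (7 and 2 after median-of-ratios scaling), with medians of 0.02 and 0.08. The 8 of 21 are near the 37.6% of all genes. With K178R, 2 were higher without K178R replicate 2, and 2 higher and 2 lower without control replicate 2. The gene lower in both was MTUS1, which codes for microtubule-associated proteins, at 0.720 FPKM with K178R, 1.79 with wild type TEAD4 and 6.72 in control (log2 -2.17, adjusted p = 1.53e-06, and log2 -1.47, adjusted p = 6.7e-06). DCLK1, a doublecortin-like kinase that binds microtubules, averaged 1.32, 0.195 and 0.0182 FPKM in K178R, wild type TEAD4 and control. It passed the filter on low values through the K178R libraries alone, so its calls, which are among the counts, are given no weight. MAPT, the gene of tau, rose with wild type TEAD4 (log2 0.52, adjusted p = 4.3e-04), as did the plus-end protein CLIP2 (log2 0.50, adjusted p = 1.8e-04), and neither was called with K178R (adjusted p = 0.384 and 0.511). Set against wild type TEAD4, K178R held less of both (log2 -0.45 for each, adjusted p = 0.00113 and 4.0e-04).

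Of 12 destabilising and severing proteins, 4 were lower and 3 higher with K178R, and 4 lower and 5 higher with wild type TEAD4 (5 and 1 after either scaling), with medians of -0.02 and 0.09. The 5 of 12 are near the 37.6% of all genes. KATNAL1, a katanin-like severing enzyme, averaged 2.90, 2.81 and 4.87 FPKM in K178R, wild type TEAD4 and control and fell in both (log2 -0.59, adjusted p = 4.5e-04, and log2 -0.62, adjusted p = 1.7e-04). STMN3, a stathmin that sequesters tubulin dimers, averaged 24.5, 31.1 and 35.0 FPKM in the same order and fell in both, further with K178R (log2 -0.50 and -0.17; K178R against wild type TEAD4 log2 -0.33, adjusted p = 3.1e-04). The severing enzyme SPAST rose in both (log2 0.25, adjusted p = 0.00749, and log2 0.33, adjusted p = 9.0e-04), and the kinesin KIF18B fell with wild type TEAD4 (log2 -0.32, adjusted p = 4.9e-04). With K178R, 2 were lower without either control library or either K178R library, while 1 was higher without K178R replicate 2 or control replicate 1 and 2 without K178R replicate 1 or control replicate 2. With wild type TEAD4, 2 were higher without replicate 1 of that line or of control, and 1 without control replicate 2.

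**Figure D5:**
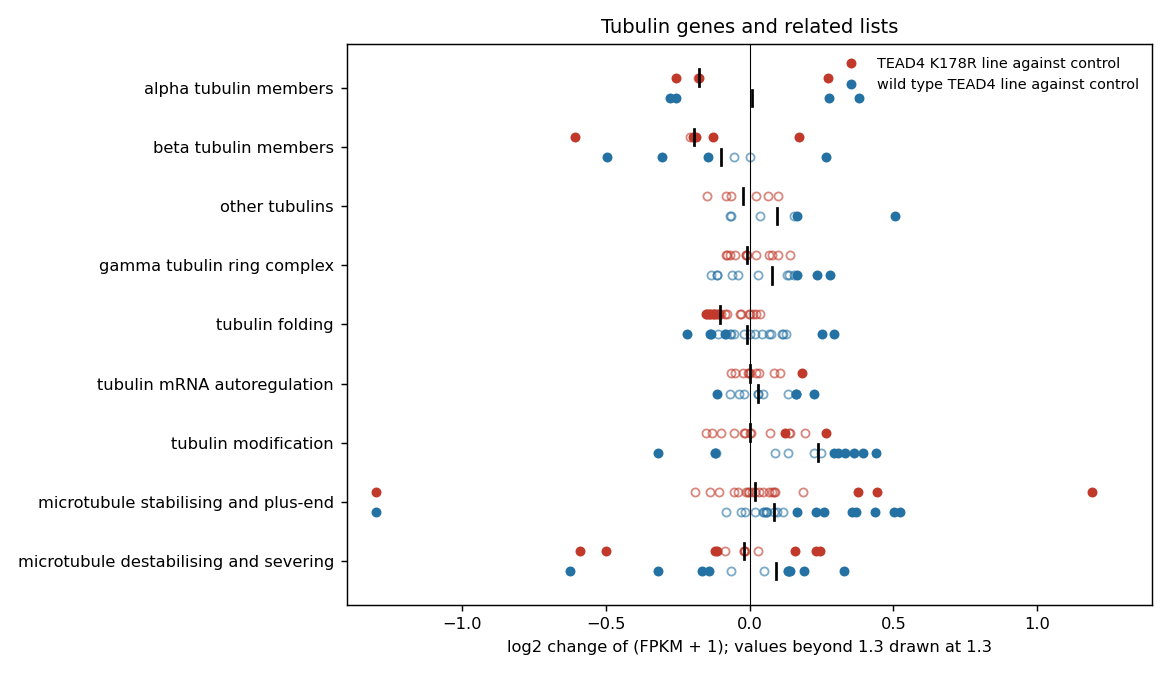
Log2 change against control of each tested gene of the tubulin classes and the related lists, K178R above wild type TEAD4 in each row. Filled points have a limma adjusted p under 0.05, black ticks are medians, and values beyond 1.3 are drawn at 1.3. Enzymes that modify tubulin have the highest median with wild type TEAD4, 0.24, with TTLL1, which passed the filter through that line alone, among them.

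The 3 members with the widest range between line means were TUBB3 (0.61 on the log2 scale), TUBA1A (0.56) and TUBB (0.30). The genes with the most similar profile over the 6 libraries, among 6806 other genes at 5 FPKM or more, were named for each by the root mean square difference of centred log2 values. For TUBB3 they were PALLD, which encodes an actin-associated scaffold, ARHGAP12 and HTR7 (differences of 0.0430, 0.0432 and 0.0536). For TUBA1A they were FAM111A, DNAL4 and CNKSR1 (0.0415, 0.0446 and 0.0476). For TUBB they were the splicing factor SF3B3, the nuclear pore gene NUP160 and the histone gene H3F3B (0.00986, 0.0133 and 0.0145). PALLD averaged 20.6, 21.3 and 29.9 FPKM and SF3B3 26.7, 23.5 and 28.9 FPKM in K178R, wild type TEAD4 and control.

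Promoter windows from RefSeq (GRCh38.p14), from 250 bases before to 50 bases after an annotated start, were found for all 10 genes, 15 windows in all. The TEAD hexamer GGAATG, searched on both strands, occurred in windows of 2 genes, TUBB4B and TUBB6, that is in 13.3% of the 15 windows and in 14.0% of all 35114 windows. The CCAAT box, written CCAAT and searched likewise, occurred in 9 of the 15 windows, from 7 of the 10 genes, and in 34.6% of all windows. Windows 1 and 2 of TUBA1C overlap and hold the same CCAAT box, which was counted in both. TUBB4B fell and TUBB6 rose in both TEAD4 lines, and the windows of the other 8 members, among them TUBB3, held no GGAATG on either strand. A match describes these letters and is not evidence of binding. The 2 windows with the hexamer are given 5′ to 3′ along the gene, with hexamers (GGAATG or its reverse CATTCC) and CCAAT boxes in capitals. In TUBB4B (chr9:137241037-137241336, plus strand) the hexamer starts 62 bases before the annotated start, and in TUBB6 (chr18:12307419-12307718, plus strand, 1 of 2 windows) 148 bases before and 45 bases after it.
TUBB4B: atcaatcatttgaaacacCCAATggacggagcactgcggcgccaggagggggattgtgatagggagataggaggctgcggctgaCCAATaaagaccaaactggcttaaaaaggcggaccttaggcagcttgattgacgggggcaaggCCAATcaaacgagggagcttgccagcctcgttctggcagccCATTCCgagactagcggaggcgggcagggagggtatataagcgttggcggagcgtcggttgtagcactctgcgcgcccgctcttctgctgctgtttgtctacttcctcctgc
TUBB6: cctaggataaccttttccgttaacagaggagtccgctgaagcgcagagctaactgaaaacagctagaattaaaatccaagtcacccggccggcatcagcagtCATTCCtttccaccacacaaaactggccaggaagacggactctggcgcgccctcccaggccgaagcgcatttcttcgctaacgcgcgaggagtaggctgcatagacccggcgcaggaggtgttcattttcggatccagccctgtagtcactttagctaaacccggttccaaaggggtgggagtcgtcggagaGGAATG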

How the data were processed

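RNA sequencing of 6 libraries, 2 for each of 3 HCT116 lines, was used as deposited, 1 table of FPKM per library with 20030 gene rows. The submitters' processing notes name Bowtie 0.12.2 and genome build hg18. For the FPKM values the authors deposited, the sources used here name neither the quantification program nor its annotation or strand setting, so gene coordinates and sequences come from GENCODE release 29 and RefSeq on GRCh38 and none from the files. The 4 rows with a repeated identifier were left out. Values were tested as log2(FPKM + 1) with limma 3.58.1 (trend, R 4.3.3) in all 6 libraries, with the 3 line means as coefficients. The 3 contrasts were two-sided, with Benjamini-Hochberg adjustment over 11445 genes at a threshold of 0.05. The procedure was also run on simulated data with few changed genes, in the K178R line alone. Many more genes were called in the real libraries, so that run does not vouch for these calls. Groups follow the genotype field, and for wild type TEAD4 the titles. The members, the related lists and the rule for named genes (up to 4 called genes per list, by largest change) were chosen with earlier results of these data known. Library totals ranged from 283195 to 305329 FPKM. Depth relative to control replicate 1 was read from the most common ratio among genes under 0.1 FPKM. Pearson's r across 9952 genes, which are not independent, was 0.998 within lines and 0.985 to 0.990 between lines. Alternatives covered the pseudocount, filters, scaling, a replicate block, the libraries and samples fitted, the variance trend and summed copies.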

Additional observations from a re-analysis of the deposited data

Results flagged for a closer look

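For 5 tubulin genes the change with K178R differed from that with wild type TEAD4 by the direct test between the 2 lines. The log2 difference, K178R minus wild type TEAD4, was -0.56 for TUBA1A (adjusted p = 5.9e-04 by limma), 0.17 for TUBB (adjusted p = 6.1e-04), -0.19 for TUBB2A (adjusted p = 0.0257), -0.11 for TUBB3 (adjusted p = 0.0230) and -0.093 for TUBB6 (adjusted p = 0.0413). In each case both libraries of one line lay on the same side of both libraries of the other. That adds no support, because the genes were picked by this test. Between these lines 44.9% of all genes tested were called. The libraries did not overlap for 21.5% of all genes, higher in K178R, and for 52.7%, lower. The differences of TUBB2A, TUBB3 and TUBB6 did not pass after median-of-ratios or upper-quartile scaling. TUBA1A differs from TUBA1B at few coding bases and stood at 10.1 ± 0.171 FPKM with K178R, 15.4 ± 1.46 with wild type TEAD4 and 11.5 ± 0.377 in control (SD, n = 2 each), against 828 ± 32.8, 772 ± 31.9 and 935 ± 14.1 FPKM for TUBA1B. The part that shared reads had in its values was not tested.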

How the results depend on the processing

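Of 465 recomputed values of tubulin genes, 395 kept their direction and side of the threshold, 41 lost their call, 12 gained one and 17 changed sign. Not all were of single genes. The sum of TUBA1A, TUBA1B and TUBA1C gave 9 of them and that of TUBB2A and TUBB2B gave 6, each sum being entered once for every gene in it. Median-of-ratios scaling gave 2756 genes higher and 2656 lower for wild type TEAD4 against control, and 2402 higher and 2408 lower for K178R against wild type TEAD4. Upper-quartile scaling gave 2162 lower in the first and 1951 higher in the second of these comparisons. In the second, 3 tubulin genes were higher and 1 lower with either scaling. With median-of-ratios scaling the summed alpha ratio was 0.778 for wild type TEAD4 against control and 1.12 for K178R against wild type TEAD4, and the summed beta ratio 0.887 for K178R against control, 0.797 for wild type TEAD4 against control and 1.11 for K178R against wild type TEAD4. With upper-quartile scaling alpha was 0.798 for wild type TEAD4 against control and 1.10 for K178R against wild type TEAD4, and beta 0.818 and 1.09. The scalings shift all genes of a library together by construction. Without the variance trend, 3 tubulin genes were lower for K178R against control and 2 for K178R against wild type TEAD4, and the cause was not tested. With the control libraries averaged into 1 sample, 658 genes were higher and 577 lower for K178R against control, with fewer samples in the fit. Leaving out 1 library at a time gave 732 to 1266 genes higher and 635 to 1229 lower for K178R against control, 3219 to 4197 and 992 to 1336 for wild type TEAD4 against control, and 793 to 1098 and 2934 to 3771 for K178R against wild type TEAD4. Tubulin genes numbered 1 to 2 higher and 4 to 6 lower, 3 higher and 5 lower throughout, and 1 to 2 higher and 1 to 3 lower in these comparisons. Where an arm was left with 1 library, that library was assumed to vary like the other lines. Changes of sign occurred in values that were not called, apart from those of TUBA1A and TUBB6. For TUBA1A the value was its sum with TUBA1B and TUBA1C, of which TUBA1A is a small part. That sum was -0.26 for wild type TEAD4 against control and 0.063 for K178R against wild type TEAD4. TUBB6 was called and read 0.0054 for K178R against wild type TEAD4 with median-of-ratios scaling. For wild type TEAD4 against control, TUBB2A was -0.096 with median-of-ratios scaling, -0.063 with upper-quartile scaling, -0.0089 summed with TUBB2B and -0.0633 to 0.0673 with 1 library left out, and TUBB2B was -0.121 to 0.0098 with 1 library left out. For K178R against wild type TEAD4, TUBA4A was 0.094 and TUBB4B 0.050 with median-of-ratios scaling, and 0.066 and 0.020 with upper-quartile scaling. There TUBA1C was -0.0265 to 0.0317 and TUBA4A -0.0149 to 0.0107 with 1 library left out. Libraries with the same replicate number did not deviate together (correlations of 0.0131, -0.035 and 0.045 over 6815 genes), and the main fit did not pair them. Whether libraries of the same number were prepared together cannot be read from these values. With a replicate block, 1210 genes were higher and 1154 lower for K178R against control, 4178 and 1334 for wild type TEAD4 against control, and 1119 and 3847 for K178R against wild type TEAD4, and TUBB6 in the last of these was the one tubulin call lost (adjusted p = 0.0581). The number of reads is unknown, so no counting interval can be given.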
